A study of Mus musculus with 22 samples.

Results

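The S100 proteins are small calcium-binding proteins, and 9 of their genes are described here: S100a1, S100a4, S100a6, S100a8, S100a9, S100a10, S100a11, S100a13 and S100b. Members were chosen by name, as every probe whose platform gene symbol is on that list. Each gene had 1 probe, which gave 9 genes of the 18524 genes with a named probe on the array. Expression was measured in the ischemic gastrocnemius, the large calf muscle, of 22 mice, all C57BL/6N males, non-diabetic and 8 to 12 weeks of age. All mice underwent hindlimb ischemia by surgery on the femoral artery, received 12 mg/kg of a locked nucleic acid (LNA) oligonucleotide into the peritoneum on day 5, and gave their muscle on day 7. The 11 ANTI-210 mice received an oligonucleotide complementary to miR-210, a microRNA induced by low oxygen, and the 11 SCR mice received a scrambled one. Each array held the RNA of 1 mouse. Muscles without ischemia were not analysed here, so all values describe ischemic muscle under either oligonucleotide, which was given systemically. Which cell types of the tissue took it up was not measured here. The comparison asks whether blocking miR-210 during recovery changed the expression of these genes.

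Most S100 proteins are dimers that change shape when calcium binds and then attach to a partner protein. They are known by the cells that make them. S100A1 is abundant in heart and skeletal muscle fibres, where it binds the calcium release channel and the calcium pump of the sarcoplasmic reticulum. S100A8 and S100A9 pair into calprotectin, which neutrophils and monocytes carry in large amounts and release as an alarm signal. S100A4, S100A6, S100A10 and S100A11 are found in fibroblasts, macrophages and other cells of the stroma, and S100B in glia, Schwann cells and fat. On chromosome 3 lie 8 of the 9 genes, and S100b lies on chromosome 10. S100a1 and S100a13 are direct neighbours there and start back to back, S100a8 and S100a9 are direct neighbours, and so are S100a11 and S100a10, with 56 protein-coding genes between S100a9 and S100a11.

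Sequences are shown for the microRNA that was blocked and for the start sites of the members on which the results turn, from RefSeq on build GRCm38.p6. In the mature microRNA, which lies at chr7:141221407-141221428 on the minus strand, capitals mark the seed, bases 2 to 8.
mmu-miR-210-3p: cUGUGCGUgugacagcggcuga

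The neighbours S100a8 and S100a9 varied together among the mice, so the DNA before their start sites is given, from chr3:90668971-90669080 on the plus strand for S100a8 and from chr3:90695712-90695821 on the minus strand for S100a9. Each stretch holds 100 bases before the annotated start and the first 10 after it. Capitals mark TATAAA, the TATA box, and CAGCTG, one form of the E-box.
S100a8: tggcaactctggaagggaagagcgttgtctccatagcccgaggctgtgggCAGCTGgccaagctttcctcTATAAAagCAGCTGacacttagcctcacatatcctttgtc
S100a9: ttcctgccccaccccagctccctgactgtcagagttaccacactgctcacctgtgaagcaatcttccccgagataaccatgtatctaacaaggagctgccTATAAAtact

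In S100a8 the TATA box began 30 bases before the annotated start, whereas in S100a9 the same letters began at the annotated start itself. Letters were searched on both strands in windows of 300 bases, 250 before and 50 after the start. TATAAA was found in 13.6% and CAGCTG in 16.3% of the 32851 windows. S100a4 also held TATAAA, at position -31 from its start, and no further member with a window did. The 2 CAGCTG matches of S100a8 stood on either side of its TATA box and did not overlap it.

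S100a11 had the largest SD of the members and ran most closely against S100a1, and its stretch, 150 bases before the start at chr3:93520346-93520495 on the plus strand, is given with TGANTCA, the AP-1 motif, in capitals. The motif occurred in 7.81% of all windows, and in the window of no other member.
S100a11: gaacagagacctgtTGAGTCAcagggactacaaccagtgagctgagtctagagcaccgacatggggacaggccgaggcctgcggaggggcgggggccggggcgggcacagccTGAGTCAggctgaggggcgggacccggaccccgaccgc

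The start sites of S100a1 and S100a13 are separated by only 104 bases, at chr3:90514331-90514434, written for the plus strand. Both genes were bright on every array, and they varied in opposite directions among the mice. None of the motifs searched is in these bases, so nothing is in capitals.
between S100a1 and S100a13: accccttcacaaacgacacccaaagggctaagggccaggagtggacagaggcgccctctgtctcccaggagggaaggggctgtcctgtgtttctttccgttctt

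A match of letters is a description of the sequence and not a binding site. A window was available for 8 of the 9 members, all except S100a10. The other motifs were CTANNNNTAG for MEF2 (3.69% of windows), TTGCNNAA for C/EBP (10.8%), GAGGAA for PU.1 (28.3%) and ACGTG for the hypoxia response element (19.6%). No member's window held CTANNNNTAG, S100a9 held 1 TTGCNNAA, S100a8 held 2 GAGGAA, and S100a4 and S100a11 held 1 GAGGAA each. ACGTG occurred in the windows of S100a6 and S100a11, in both on overlapping letters of the opposite strands.

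Values are log2 intensities, on which a difference of 1 is a doubling, and probes whose mean over all mice was under 6 are called near the floor. The arrays resembled each other closely, with correlations between 0.947 and 0.997 over 38563 probes. In a principal component analysis the first component took 63.6% and the second 7.31% of the variance. The second separated the mice with replicate numbers 1 to 3 of both treatments (scores of -24.9 to -14.9) from those numbered 4 to 11 (-6.06 to 21.95). That split was found in the values in an earlier analysis of these arrays and no label explains it, so values within the 2 sets are given beside the pooled ones. The muscle identity of the samples was clear: Ckm, the creatine kinase of muscle, ran from 14.5 to 15.2 in ANTI-210 mice and from 14.8 to 15.2 in SCR mice. The probes used here did not read miR-210 itself. Over all probes, 3.41% had an unadjusted p under 0.05 for ANTI-210 minus SCR in limma (1.47% higher and 1.94% lower with ANTI-210), and 0.00519%, which is 2 probes, passed after Benjamini-Hochberg adjustment.

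No difference between ANTI-210 and SCR muscles passed the test for any of the 9 members. Against a background of 3.41% of probes, 0 of 9 had an unadjusted p under 0.05 in limma, 0 of 9 in the t-test that the methods name, and every adjusted p was 1. Differences ran from -0.14 for S100a9 to 0.31 for S100a11, and their 95% intervals all included 0. A p that misses the threshold does not show equality, and the intervals set what remained possible: between 0.75-fold and 1.42-fold for S100a1, and between 0.77-fold and 1.999-fold for S100a11. Other fits did call members at the unadjusted threshold: S100a6 and S100a11 with limma array weights (p = 0.0302 and 0.0363, where 9.41% of all probes passed) and with a score of mature fibre genes as a covariate (p = 0.00779 and 0.0222, 7.42% of probes), and S100a1 and S100a11 with the first principal component as a term (p = 0.00476 and 0.0102, 5.96% of probes), in each case higher with ANTI-210.

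S100a1, the member of the muscle fibre, had a lowest value of 10.79, a median of 11.52 and a highest of 12.10 in ANTI-210 mice, against 10.43, 11.78 and 12.07 in SCR mice. The groups overlapped almost completely, and the 3 lowest muscles, SCR replicates 6 and 7 and ANTI-210 replicate 11, came from both. The means were 11.60 ± 0.44 in ANTI-210 mice and 11.55 ± 0.62 in SCR mice (SD, n = 11 each), a difference of 0.05 (SE 0.22, limma p = 0.832).

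S100a8 spanned 7.32 to 9.53 with a median of 8.70 in ANTI-210 mice, and 7.68 to 8.98 with a median of 8.16 in SCR mice. ANTI-210 replicates 4 and 6 were the highest of all 22 muscles, at 9.53 and 9.35, yet the lowest muscle, at 7.32, was also an ANTI-210 one. The means were 8.51 ± 0.69 in ANTI-210 mice and 8.33 ± 0.45 in SCR mice (SD, n = 11 each), a difference of 0.17 (SE 0.24, limma p = 0.480).

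Its partner S100a9 spanned 6.13 to 9.11 with a median of 6.91 in ANTI-210 mice, and 6.70 to 8.06 with a median of 7.39 in SCR mice. The same ANTI-210 muscles stood apart, replicate 6 at 9.11 and replicate 4 at 9.05, with a gap of 0.99 to the next muscle, SCR replicate 5 at 8.06, which was the widest gap of any member. The other ANTI-210 muscles lay between 6.13 and 7.44. The means were 7.20 ± 0.997 in ANTI-210 mice and 7.34 ± 0.39 in SCR mice (SD, n = 11 each), a difference of -0.14 (SE 0.31, limma p = 0.662).

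Among the stromal members, S100a4, which binds non-muscle myosin and is used as a fibroblast marker, spanned 7.26 to 8.70 with a median of 7.67 in ANTI-210 mice, and 6.55 to 9.57 with a median of 7.38 in SCR mice. Both the highest and the lowest muscle were SCR ones, replicates 6 and 11. The difference between the means was 0.11 (SE 0.27, limma p = 0.698), with 7.78 ± 0.45 in ANTI-210 mice and 7.67 ± 0.83 in SCR mice (SD, n = 11 each).

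S100a6, or calcyclin, was high in every muscle, from 11.17 to 12.07 with a median of 11.64 in ANTI-210 mice, and from 11.17 to 12.25 with a median of 11.34 in SCR mice. It had the smallest p of the members, with 11.62 ± 0.26 in ANTI-210 mice and 11.48 ± 0.33 in SCR mice (SD, n = 11 each; difference 0.15, SE 0.12, limma p = 0.242). SCR replicate 6 was again the highest muscle, and without it the difference was 0.22 (limma p = 0.0380), past the unadjusted threshold, as were 4.65% of all probes in that fit.

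S100a10, the partner of annexin A2, which does not itself bind calcium, spanned 9.24 to 10.20 with a median of 9.77 in ANTI-210 mice, and 8.89 to 10.89 with a median of 9.59 in SCR mice. The means were 9.79 ± 0.28 in ANTI-210 mice and 9.72 ± 0.55 in SCR mice (SD, n = 11 each), a difference of 0.07 (SE 0.18, limma p = 0.713). The 2 highest values were those of SCR replicates 6 and 7.

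S100a11, which binds annexin A1, had the largest SD over all mice of the 9 members, from 11.85 to 14 with a median of 12.88 in ANTI-210 mice, and from 11.66 to 14.09 with a median of 12.05 in SCR mice. Its difference was the largest and still within its error, with 12.74 ± 0.71 in ANTI-210 mice and 12.43 ± 0.89 in SCR mice (SD, n = 11 each; difference 0.31, SE 0.33, limma p = 0.353). SCR replicates 6, 7 and 8 reached 13.39 to 14.09, and the other 8 SCR muscles lay between 11.66 and 12.32.

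S100a13, which takes part in the release of FGF1 and is made by many cell types, was the steadiest of the bright members, from 11.04 to 11.44 with a median of 11.14 in ANTI-210 mice, and from 10.83 to 11.70 with a median of 11.04 in SCR mice (difference 0.03, SE 0.09, limma p = 0.782). S100b stayed at the floor in all mice, from 4.45 to 4.67 in ANTI-210 mice and from 4.47 to 4.69 in SCR mice (difference -0.01, SE 0.03, limma p = 0.835). No level of S100b above the floor was detectable on these arrays.

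**Figure D1:**
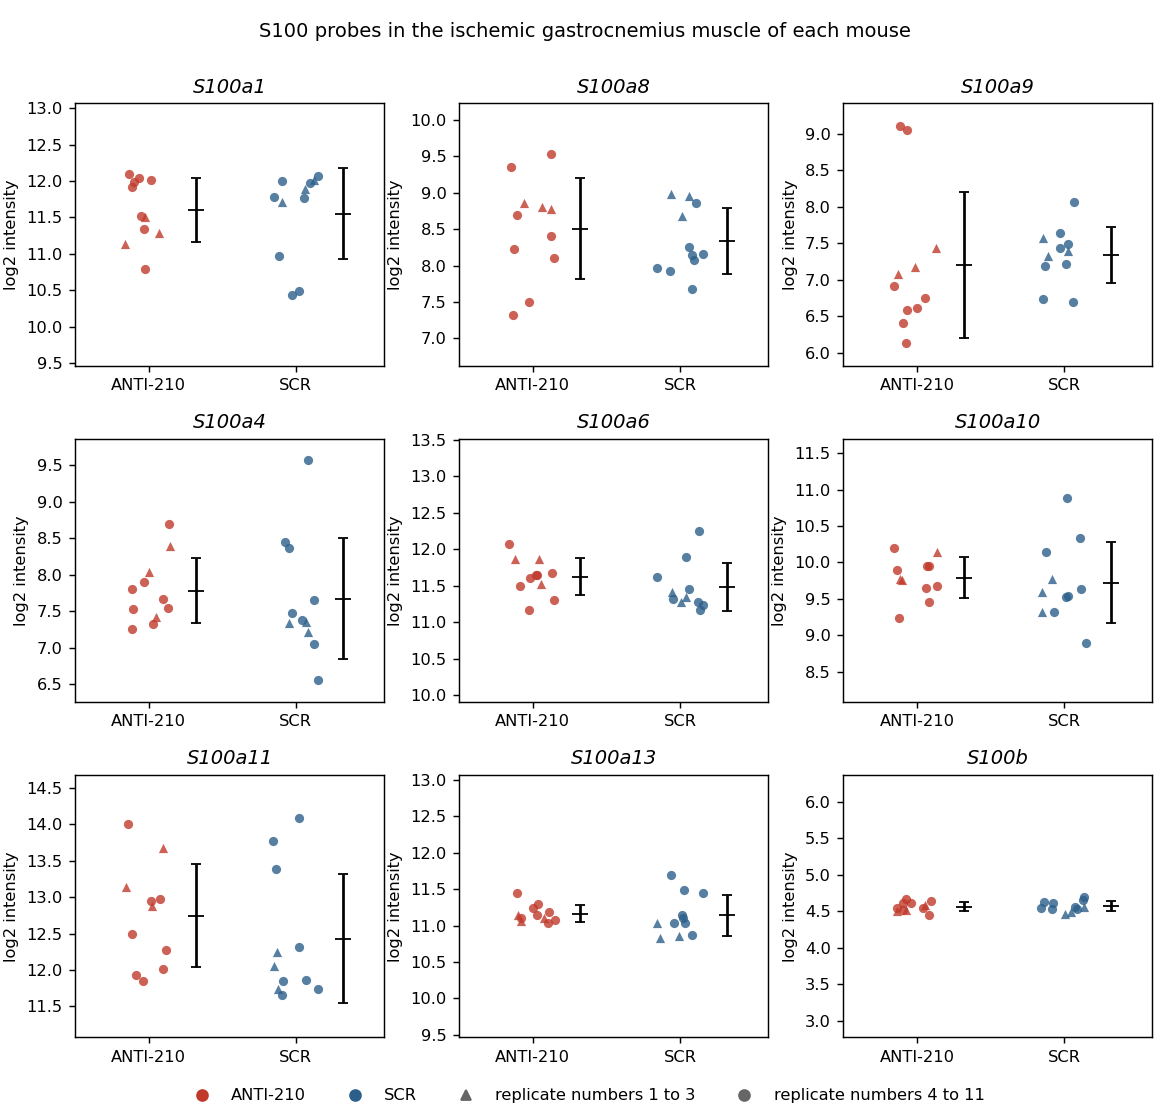
Log2 intensity of each S100 probe (vertical axes, each spanning the same number of log2 units) in ANTI-210 mice (left, red) and SCR mice (right, blue), with triangles for replicate numbers 1 to 3 and circles for 4 to 11; black bars are the mean and SD of 11 mice. Groups overlap for every gene, ANTI-210 replicates 4 and 6 stand apart for S100a9 at 9.05 and 9.11, and S100b lies at the floor.

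The estimates of the treatment difference were unlike in the 2 sets of replicate numbers, but no test showed a difference between the sets. Within numbers 1 to 3 the values of the groups did not overlap for 5 members: S100a1 was lower with ANTI-210 (1 member, where 16.9% of all probes were lower without overlap), and S100a4, S100a6, S100a11 and S100a13 were higher (4 members, where 16.2% of all probes were). S100a11 was at 12.88, 13.14 and 13.68 in the ANTI-210 mice numbered 1 to 3, against 11.74, 12.05 and 12.25 in SCR mice. S100a1 was at 11.50, 11.28 and 11.13 in these ANTI-210 mice, against 11.89, 11.71 and 12.02 in SCR mice.

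Set by set, the difference of S100a11 was 1.22 in numbers 1 to 3 (exact permutation p = 0.1, two-sided, the smallest that 3 mice against 3 can give) and -0.03 in numbers 4 to 11 (exact permutation p = 0.953). For S100a1 the differences were -0.57 in numbers 1 to 3 (exact permutation p = 0.1) and 0.28 in numbers 4 to 11 (exact permutation p = 0.361). S100a4 gave 0.65 and -0.09, S100a6 gave 0.41 and 0.05, S100a10 gave 0.33 and -0.03, and S100a13 gave 0.20 and -0.04 in numbers 1 to 3 and in numbers 4 to 11. The calprotectin genes gave -0.06 and 0.26 for S100a8, where the sign turned, and -0.20 and -0.12 for S100a9. The interaction of treatment with set had its smallest limma p for S100a1 (0.0946) and S100a11 (0.101). Thus 0 of 9 members passed unadjusted, against 11.0% of all probes, and 0 probes of the array passed after adjustment.

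**Figure D2:**
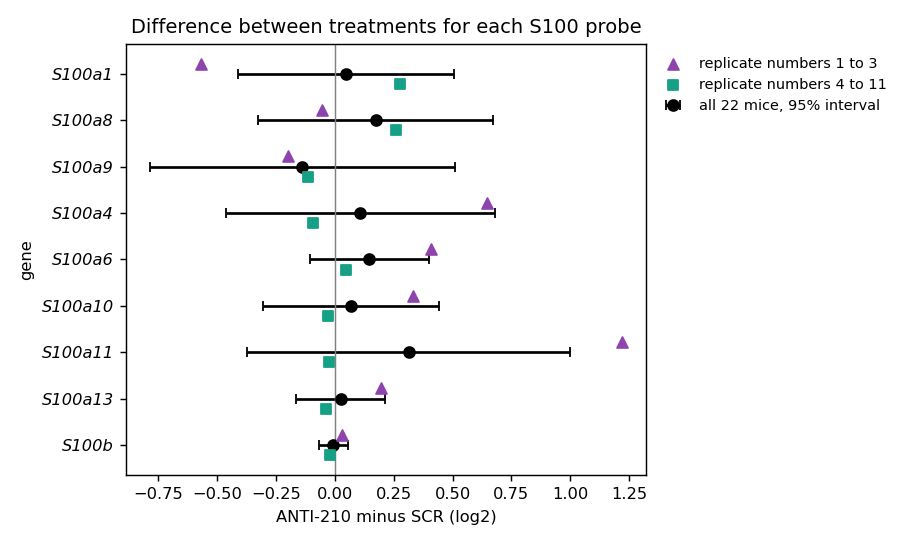
ANTI-210 minus SCR (log2, horizontal axis) for each S100 gene: black circles are all 22 mice with the 95% interval from limma, purple triangles the mice numbered 1 to 3 and green squares those numbered 4 to 11. All 9 intervals include 0, and the 2 sets lie farthest apart for S100a11 (1.22 and -0.03) and S100a1 (-0.57 and 0.28).

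Differences among mice were wide. The brightest muscle exceeded the dimmest by 8.11-fold for S100a4, 7.89-fold for S100a9, 5.39-fold for S100a11, 4.63-fold for S100a8 and 3.18-fold for S100a1. By SD over the 22 mice, S100a11 (0.80) varied more than 95.7% of the 14412 probes not near the floor, S100a9 (0.74) more than 94.4%, S100a4 (0.65) more than 91.5%, S100a8 (0.58) more than 87.5% and S100a1 (0.52) more than 83.7%. S100a6 (0.30, 53.8%) and S100a13 (0.21, 31.7%) were closer to the median of those probes, 0.28.

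These differences among mice followed 3 patterns. S100a1 ran against the 4 stromal members and S100a13. The correlation over 22 mice was -0.93 with S100a11 (Spearman -0.81), -0.88 with S100a4 (-0.74), -0.83 with S100a6 (-0.69), -0.82 with S100a10 (-0.67) and -0.81 with S100a13 (-0.56). Such opposition was common on these arrays: 33.0% of 8827 genes had a negative r of 0.6 or more in size with S100a1. The 36 pairs of members were tested by permutation with 100000 resamples, two-sided. The adjusted permutation p of these 5 pairs was at most 7.71e-05 for Pearson's r and at most 0.0164 for Spearman's rho, from raw p-values of at most 3e-05 and 0.00731. The muscles with the least S100a1, SCR replicates 6 and 7 and ANTI-210 replicate 11, at 10.43, 10.49 and 10.79, had the first, the third and the second highest S100a11, at 14.09, 13.77 and 14.

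The r of S100a1 with S100a11 was negative in each division of the mice: -0.96 within ANTI-210, -0.95 within SCR, -0.94 in numbers 4 to 11, -0.91 in numbers 1 to 3 and -0.91 without SCR replicates 6 and 7, the 2 mice farthest from the median of S100a1. With S100a4 these values were -0.84, -0.91, -0.88, -0.87 and -0.84. In the 6 mice numbered 1 to 3 neither pair passed (adjusted permutation p = 0.125 for both), and the treatments did not overlap there for any of these genes. Within ANTI-210 alone the pairs of S100a1 with S100a10 (-0.66, adjusted permutation p = 0.0907) and with S100a13 (-0.62, adjusted permutation p = 0.113) did not pass, whereas within SCR they were -0.91 and -0.90. By Pearson's r, 16 of the 36 pairs passed over all mice, 7 of these within ANTI-210, 15 of these within SCR and 0 in numbers 1 to 3. Fewer passed by Spearman's rho within ANTI-210: S100a1 with S100a11, S100a4 with S100a6, S100a4 with S100a10, and S100a8 with S100a9. There S100a1 with S100a4 had rho -0.72 (adjusted permutation p = 0.0946). Without SCR replicates 6 and 7, S100a1 with S100a13 had rho -0.42 (adjusted permutation p = 0.144).

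The 4 stromal members and S100a13 rose and fell together, with r between 0.74 (S100a6 and S100a13) and 0.93 (S100a4 and S100a10). Of 8827 genes, 30.1% had an r of 0.6 or more with S100a4. S100a11 and S100a10 are direct neighbours on the chromosome and correlated at 0.79, whereas S100a1 and S100a13, which share the 104 bases between their starts, correlated at -0.81.

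S100a8 and S100a9 formed the remaining pattern. They correlated at 0.72 with each other (Spearman 0.58, adjusted permutation p = 3.37e-04 and 0.0137, from raw p-values of 1.5e-04 and 0.0057), but no correlation with another member passed. Their r with S100a1 was 0.17 and 0.22, and with the 4 stromal members and S100a13 it lay between -0.36 and 0.01 (adjusted permutation p for r of at least 0.216). By rank, S100a9 with S100a11 came nearest, at rho -0.43 (adjusted permutation p = 0.0985, from a raw p of 0.0465). ANTI-210 replicates 4 and 6 weighed on the pair. Without them, a choice made after the values were seen, r was 0.53 (raw permutation p = 0.0168) and rho 0.44 (raw permutation p = 0.0539) over 20 mice. Within ANTI-210 r was 0.84 (adjusted permutation p = 0.0153), and within SCR it was 0.45 and did not pass (adjusted permutation p = 0.352). In numbers 4 to 11 it was 0.80, and in the 6 mice numbered 1 to 3 it was -0.37 over a narrow range of both genes.

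**Figure D3:**
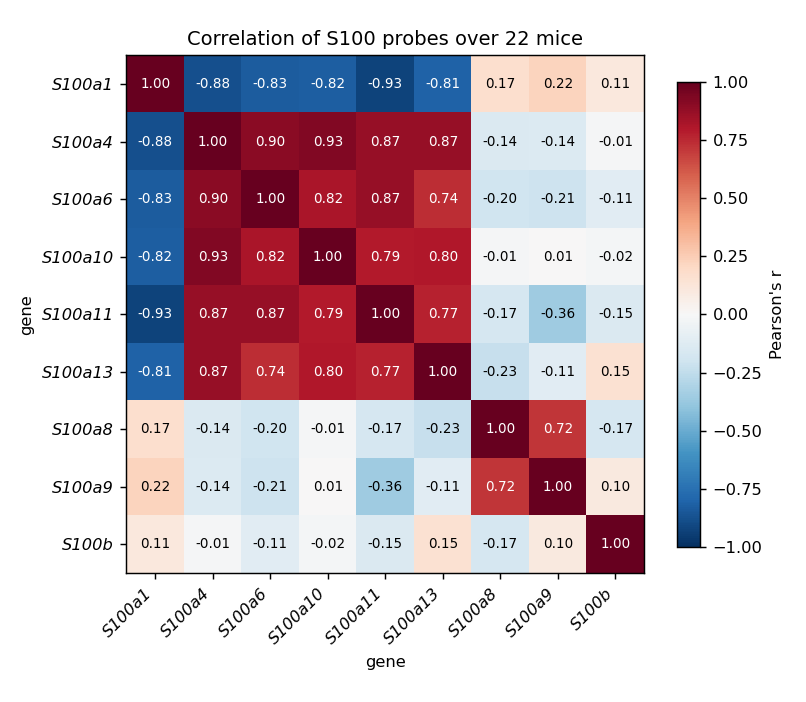
Pearson's r between the 9 S100 probes over 22 mice, from -1 (blue) to 1 (red), with the value in each square. S100a1 is at -0.81 to -0.93 with S100a4, S100a6, S100a10, S100a11 and S100a13, which form 1 block; S100a8 and S100a9 pair at 0.72, and S100b stands alone.

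The members were then set against scores of cell type markers, each the average, over the genes of a marker list, of how far the log2 value of a gene lay from its own mean in the 22 mice, with treatment in the limma fit. In bulk muscle, fewer cells of a type and less RNA per cell cannot be told apart. The mature fibre score held 19 genes, 1 of them near the floor. Ckm, Acta1 and Mylpf lay near the top of the array range and varied little, with SDs over the mice of 0.16, 0.08 and 0.05. Ckmt2, Casq1, Mybpc2 and Pygm varied more, with SDs of 0.75, 0.67, 0.58 and 0.57. S100a1 rose with this score with a slope of 1.97 log2 units per unit of score (SE 0.20, adjusted limma p = 8.96e-08), and 16.5% of all probes rose with it. The 4 stromal members and S100a13 fell with it, from -0.72 for S100a13 (SE 0.12, adjusted limma p = 2.55e-05) to -2.95 for S100a11 (SE 0.30, adjusted limma p = 7.08e-08), where 19.0% of all probes fell.

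The macrophage score gave the mirror image. S100a11 rose with it at 1.10 log2 units per unit of score (SE 0.08) and S100a4 at 0.84 (SE 0.10), while S100a1 fell by 0.73 on the log2 scale (SE 0.05). The same 5 members rose and the same 1 fell with the fibroblast score, S100a11 at 1.86 per unit (SE 0.14) and S100a1 at -1.22 (SE 0.11). These 6 adjusted p-values per score were at most 1.75e-04 for the macrophage score and 0.00166 for the fibroblast score, in limma over all probes. The background was wide here too, since 19.7% of probes rose and 18.6% fell with the macrophage score, and 19.5% rose and 18.5% fell with the fibroblast score.

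Ranges of the scores overlapped between treatments. The macrophage score (16 genes, 3 near the floor) ran from -0.72 to 1.05 in ANTI-210 mice and from -1.27 to 1.24 in SCR mice, the fibroblast score (14 genes, 2 near the floor) from -0.37 to 0.68 in ANTI-210 mice and from -0.73 to 0.62 in SCR mice, and the mature fibre score from -0.54 to 0.16 in ANTI-210 mice and from -0.64 to 0.20 in SCR mice. The part of cell composition in the values of the 6 members was not tested.

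Although S100A8 and S100A9 are proteins of neutrophils, neither gene followed the neutrophil score. S100a8 had r = 0.12 with the score and S100a9 0.22 (adjusted limma p = 0.758 and 0.540). S100a1 fell and the 4 stromal members and S100a13 rose with it (adjusted limma p of at most 0.0136), where 12.8% of all probes fell and 14.2% rose. Without SCR replicate 6 and ANTI-210 replicate 3, the mice farthest out on this score, 0 of 9 members passed after adjustment and 6 unadjusted in limma, where 3.89% of all probes passed after adjustment and 24.1% unadjusted.

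The neutrophil list itself was mostly unread. Of its 20 measured genes 16 were near the floor, among them Mpo, Elane, Ngp, Camp, Ltf and Mmp8, the defining granule genes, with means of 4.55 to 4.81. The score ran from -0.19 to 0.25 in ANTI-210 mice and from -0.14 to 0.30 in SCR mice. Its genes were not scaled, so the most variable gene, Mmp9, weighed most on it. The SD of Mmp9 over the mice was 1.63, and the next largest was 0.64, for Fpr2. Single genes of the list differed in their relation to the pair. The r with S100a8 was above 0 for 10 of the 20 genes and ran from -0.42 to 0.67, and the r with S100a9 was above 0 for 11 and ran from -0.25 to 0.66. Highest was Retnlg, a resistin-like secreted protein, with r = 0.67 for S100a8 and 0.66 for S100a9. Next by r with S100a9 were Il1r2, the decoy receptor of interleukin 1 (0.36 with S100a8 and 0.58 with S100a9), Cxcr2, a chemokine receptor of neutrophils (0.53 and 0.57), and Lcn2, a lipocalin that binds iron carriers of bacteria (0.42 and 0.46). The means of Retnlg, Cxcr2 and Il1r2 were near the floor, at 4.73, 4.55 and 5.59, and that of Lcn2 was 6.05. Mmp9, a protease of neutrophil granules that other cells also make, was the most variable gene of the list, from 6.25 to 10.99 in ANTI-210 mice and from 5.91 to 11.41 in SCR mice, and its r was -0.19 with S100a8 and -0.21 with S100a9. These correlations over 22 mice carry no test. In ANTI-210 replicates 4 and 6, where S100a8 and S100a9 were highest, 2 of the 20 genes were above every SCR mouse in both muscles, and 0 were below every SCR mouse in both. These were Il1r2, at 6.02 and 6.19 against at most 5.88 in SCR mice, and Cxcr2, at 4.68 and 4.69 against at most 4.61 in SCR mice. The share of all probes above every SCR mouse in both muscles was not computed, so the 2 of 20 genes have no background to be read against. What set the calprotectin genes in these 2 muscles was not tested.

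**Figure D4:**
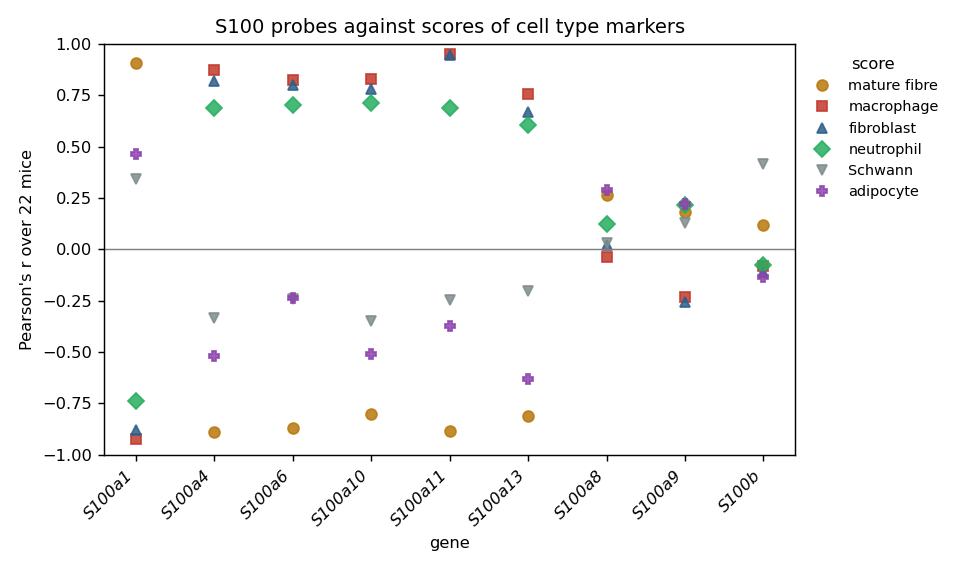
Pearson's r over 22 mice (vertical axis) between each S100 gene and 6 scores of cell type markers. S100a1 lies at 0.91 with the mature fibre score and -0.92 with the macrophage score, S100a4 to S100a13 lie on the other side, and S100a8, S100a9 and S100b lie between -0.26 and 0.42 for every score.

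S100b, the Schwann cell and fat member, did not follow the Schwann score (9 genes, 4 near the floor; slope 0.11, SE 0.05, adjusted limma p = 0.613) or the adipocyte score (9 genes, 5 near the floor; slope -0.02, SE 0.04, adjusted limma p = 0.814). Schwann and fat cell genes were read on the same arrays: Mbp, a myelin protein, ran from 8.68 to 10.37 in ANTI-210 mice and from 7.61 to 10.33 in SCR mice, and Adipoq, the gene of adiponectin, from 8.97 to 10.93 in ANTI-210 mice and from 8.30 to 10.93 in SCR mice. The range of the S100b probe over all 22 muscles was 0.24. For the Schwann score 0 of 9 members passed after adjustment and 0 unadjusted in limma, where 0.0622% of probes rose and 0.00259% fell, and 7.65% passed unadjusted. For the adipocyte score 0 of 9 passed after adjustment and 5 unadjusted (S100a13 nearest, slope -0.37, adjusted limma p = 0.0538), where 0.799% of probes rose and 0.617% fell, and 21.1% passed unadjusted. S100a13 passed this score after adjustment with median centring, as did 2.07% of probes, and with a filter on dim probes, as did 5.78%. The Schwann result depended on the mice. In numbers 4 to 11 alone, 6 of 9 members passed after adjustment in limma, S100a1 and the 5 that oppose it, where 29.7% of all probes passed. Without SCR replicates 1 and 2, the mice farthest out on that score, S100a4, S100a10 and S100a11 passed, as did 8.96% of all probes.

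**Figure D5:**
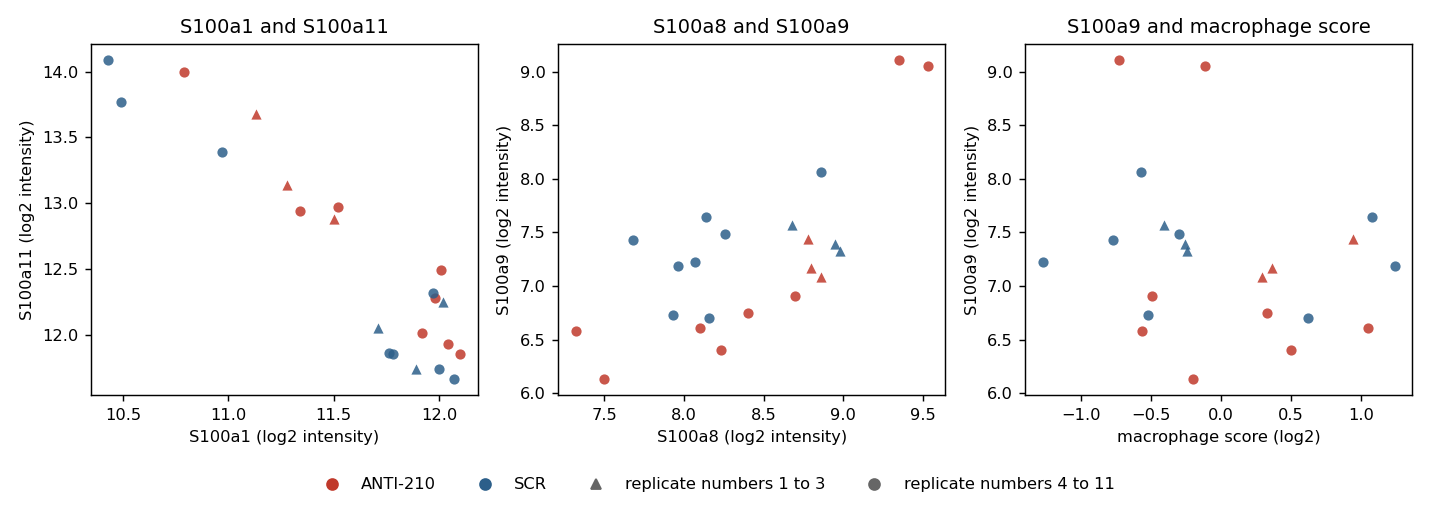
Each point is 1 muscle, ANTI-210 in red and SCR in blue, with triangles for replicate numbers 1 to 3 and circles for 4 to 11; axes are log2 intensities, and for the macrophage score the mean log2 deviation of its genes. S100a11 falls as S100a1 rises (r = -0.93), S100a9 rises with S100a8 (r = 0.72) with ANTI-210 replicates 4 and 6 at the top right, and S100a9 shows no relation to the macrophage score (r = -0.23).

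Proteins that S100 proteins bind were looked at next, with the list of 10 annexins and other partners chosen when earlier results of these arrays were known. None of the 10 passed the unadjusted threshold between treatments, where 3.41% of all probes did. Their median difference was 0.04, beside a median of -0.0036 over all probes. The smallest p-values belonged to Anxa11 (-0.07, limma p = 0.116), Anxa6 (-0.07, p = 0.239), Anxa5 (0.26, p = 0.350) and S100pbp (0.10, p = 0.386, near the floor). Among mice, S100a10 followed its partner Anxa2, annexin A2, at r = 0.86 (rho 0.76), and S100a11 followed Anxa1, annexin A1, at r = 0.90 (rho 0.85). Over 8 such member and partner pairs the adjusted permutation p was 2.67e-05 for r in both, from a raw p of 1e-05, the smallest that the resamples can give. High correlations were common on these arrays. For S100a4, which rose and fell with S100a10 and S100a11, 30.1% of 8827 genes had an r of 0.6 or more. That share was not computed for S100a10 or S100a11, so whether these pairs exceed it was not tested. Anxa2 ran from 12.45 to 14.05 in ANTI-210 mice and from 12.15 to 14.30 in SCR mice. S100a6 had no correlation that passed with Anxa11 (r = 0.24, rho 0.22, adjusted permutation p = 0.576) or with Cacybp, the calcyclin-binding protein (r = 0.01, rho -0.05, adjusted permutation p = 0.973) over all mice. Within ANTI-210 and within SCR these were 0.20 and 0.43 for Anxa11 and -0.25 and 0.30 for Cacybp. Without the 2 mice farthest from the median of the member, r was 0.81 for S100a10 and Anxa2 and 0.87 for S100a11 and Anxa1, and within ANTI-210 and within SCR it was 0.65 and 0.96 for the first pair and 0.86 and 0.95 for the second.

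With the mature fibre score 6 of the 10 partners fell and 1 rose, Capzb, the beta subunit of the actin capping protein, beside 19.0% and 16.5% of all probes. Anxa2 fell by 2.38 on the log2 scale (SE 0.22), and Anxa5, which binds phosphatidylserine, fell by 2.28 on the log2 scale (SE 0.29).

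Receptors named for secreted S100 proteins were 6 genes, of which 3 were near the floor: Ager, which encodes RAGE, Cd36 and Bsg. None passed the unadjusted threshold between treatments, where 3.41% of all probes did (median difference 0.06). The smallest p-values were those of Ly96, the MD-2 subunit of the TLR4 complex (0.26, limma p = 0.187), Bsg (-0.13, p = 0.241), Cd14, a co-receptor of TLR4 (0.32, p = 0.344), and Tlr4 itself (0.09, p = 0.498). Tlr4, the receptor of calprotectin, ran from 7.59 to 8.33 in ANTI-210 mice and from 7.37 to 8.50 in SCR mice. Its r was 0.08 with S100a8 and -0.14 with S100a9 (rho 0.09 and -0.19, adjusted permutation p = 0.815 and 0.703), with 0.15 and -0.12 within ANTI-210 and -0.01 and -0.23 within SCR. With the macrophage score 4 of the 6 receptors rose and 1 fell, where 19.7% and 18.6% of probes did.

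Calcium cycling proteins of the fibre, the surroundings of S100A1, were 12 measured genes, of which 3 were near the floor. None passed the unadjusted threshold between treatments, where 3.41% of all probes did (median difference 0.01). The smallest p-values were those of Trdn (-0.03, limma p = 0.315, near the floor), Pln (0.08, p = 0.357, near the floor), Cacnb1, a subunit of the calcium channel of the transverse tubule (-0.16, p = 0.377), and Casq1, calsequestrin (0.24, p = 0.405). Ryr1, the calcium release channel of skeletal muscle, followed S100a1 among mice at r = 0.89 (rho 0.66, adjusted permutation p = 2.67e-05 and 0.00275), and at r = 0.81 within ANTI-210 and 0.93 within SCR. Of 8827 genes, 31.6% had an r of 0.6 or more with S100a1. Ryr1 ran from 13.74 to 14.77 in ANTI-210 mice and from 13.52 to 14.82 in SCR mice. Atp2a1, the calcium pump of fast fibres, had r = 0.20 with S100a1 over all mice (rho 0.14, adjusted permutation p = 0.597). This pooled value joined unlike groups, with r = 0.76 within ANTI-210 and -0.33 within SCR, a difference that was not tested. Atp2a1 ran from 14.58 to 14.96 in ANTI-210 mice and from 14.61 to 14.91 in SCR mice, close to the top of the range of the arrays. With the mature fibre score 6 of the 12 rose and 1 fell, beside 16.5% and 19.0% of all probes. The gene that fell was Sln, the pump inhibitor sarcolipin, at -2.41 per unit (SE 0.45).

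Of the further S100 genes of the mouse 7 were measured, and 6 of them were near the floor. The exception, S100a16, ran from 7.95 to 8.55 in ANTI-210 mice and from 8.03 to 8.58 in SCR mice (difference 0.03, limma p = 0.730). Of these 7, 1 gene passed the unadjusted threshold, S100a7a, where 3.41% of all probes passed and 1.94% did so lower with ANTI-210. S100a7a was lower with ANTI-210 by a small step at the floor, with a lowest value of 4.44, a median of 4.53 and a highest of 4.57 in ANTI-210 mice against 4.54, 4.55 and 4.76 in SCR mice (difference -0.08, limma p = 0.0115, adjusted p = 1). The next smallest p-values were those of S100a3 (-0.07, limma p = 0.393) and S100z (0.06, p = 0.460), both near the floor.

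Genes whose pattern over the 22 mice was most like that of 4 members are given by Pearson's r over the brightest probe of each gene with a mean of at least 6. Nearest to S100a1 were Rcan2, an inhibitor of calcineurin (0.99), Amhr2, the receptor of anti-Müllerian hormone (0.98), Kcng4, a potassium channel subunit (0.98), Amy2a5, an amylase whose near-identical copies its probe may also read (0.98), and Atp6v0e2, a subunit of the vacuolar proton pump (0.97). S100a1 had much company: 31.6% of 8827 genes had an r of 0.6 or more with it. Nearest to S100a4 were Col8a1, a collagen (0.96), Pfn1, profilin (0.96), Vcan, versican (0.94), Mydgf, a secreted growth factor (0.94), and Cnn2, calponin 2 (0.94), and 30.1% of genes had an r of 0.6 or more.

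S100a8 had little company. Its nearest gene was S100a9 (0.72), followed by Lyve1, a hyaluronan receptor of lymphatic endothelium (0.66), Hdc, which makes histamine (0.64), Rab6a (0.64) and Sav1 (0.64), and 0.113% of 8827 genes had an r of 0.6 or more. For S100b, whose probe is at the floor, 0.0453% did, with Vps26b (0.62), Oga (0.62), Efna1 (0.62), 9130020K20Rik (0.62) and Tdrd3 (0.58) as the nearest. These correlations were picked as the highest among all genes compared and carry no test. The share of genes near S100a1 and near S100a8 is a description of the same 22 muscles, since every pair of genes shares the arrays.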

How the data were processed

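The authors hybridized biotin-labelled RNA, made from 200 ng of total RNA per muscle, to Illumina MouseWG-6 v2 arrays, summarised the beads of each probe with GenomeStudio, applied quantile normalization and filtered the probes by beadarray, per the study's methods. The deposited values are log2 intensities, 1 per probe and array, from 4.35 to 15.4. No source used here names the log base, which was taken as 2 from that range, the software versions or which mice shared a chip, and 0 further columns of values were present. Detection p-values were not used, so "near the floor" is a mean under 6, which held for 62.6% of probes. No array pair was identical.

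Groups and replicate numbers came from the sample titles. All 38563 probes were fitted with limma 3.58.1 (lmFit and eBayes) in R 4.3.3 without covariates, two-sided, at the unadjusted p of 0.05 that the methods use and after Benjamini-Hochberg adjustment over all probes. Gene names are the platform's: 32093 probes carried 1 symbol, 16 several and 6454 none. The brightest probe stood for a gene. Permutation tests (100000 resamples, exact within sets) used Python 3.11.15 with numpy 2.4.6. Scores left out the members and any list gene being fitted. Same-numbered mice were not paired. Scripts were tested on simulated data. The number of arrays limits the precision: the median SE of a difference was 0.07.

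The members, the lists of partners, receptors, calcium cycling genes, further S100 genes and cell type markers, the tests and the alternatives were chosen with earlier results of these data known. Named genes are all members, the 5 genes most like S100a1, S100a8, S100a4 and S100b, up to 4 genes of each list with the smallest p, and markers that define a score. Capzb, Sln, Anxa2, Retnlg, Cxcr2, Il1r2, Lcn2 and the pairs of member and partner were chosen after values were seen. Alternatives were cyclic loess, median centring, trend and robust eBayes, array weights, a filter on dim probes, gene averages over probes, a block for the replicate number, the replicate set, the first principal component or the fibre score as a covariate, the methods' t-test, numbers 4 to 11 alone, and leaving out mice.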

Additional observations from a re-analysis of the deposited data

How the results depend on the processing

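The absence of a treatment call held for S100a8, S100a9, S100a4, S100a10, S100a13 and S100b under every alternative that was run. It did not hold for S100a1, S100a6 and S100a11. Of the 9 members, 2 passed the unadjusted threshold with limma array weights (S100a6 0.23, p = 0.0302; S100a11 0.58, p = 0.0363), 2 with the first component of the arrays in the model (S100a1 0.17, p = 0.00476; S100a11 0.13, p = 0.0102) and 2 with the mature fibre score as a covariate (S100a6 0.16, p = 0.00779; S100a11 0.35, p = 0.0222). The count of all probes past that threshold, 1316, was 2298 with the first component, 3628 with array weights and 2863 with the fibre score. It was 492 with the filter on dim probes and 567 with gene averages over probes, fits that tested fewer features (19285 and 18524). The cause of these shifts was not tested.

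Signs turned for small differences: S100a1 was -0.15 with array weights, S100a4, S100a10 and S100a13 were -0.030, -0.015 and -0.015 with the first component, and S100a4, S100a10, S100a11 and S100a13 were -0.094, -0.031, -0.026 and -0.039 in numbers 4 to 11. Leaving out each mouse in turn gave 1110 to 1792 probes and 0 to 1 members past the threshold (S100a6 without SCR replicate 6), and differences of -0.065 to 0.13 for S100a1, -0.0042 to 0.30 for S100a4, -0.016 to 0.18 for S100a10, -0.0055 to 0.082 for S100a13 and -0.017 to 0.0056 for S100b. The samples share only a replicate number: deviations of same-numbered mice correlated above 0.1 in 4 of 11 pairs (-0.66 to 0.64), and 1 of 11 mice correlated best with its own number. With the replicate block 1305 probes and 0 members passed.

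In limma 6 of 9 members passed for the mature fibre, macrophage and fibroblast scores under every alternative fit. In the main fits 16.5% to 19.7% of all probes rose and 18.5% to 19.0% fell. Pearson's r within ANTI-210 alone lost some of the 6. S100a10 did not pass for the mature fibre score (adjusted permutation p = 0.0662). S100a6, S100a10 and S100a13 did not for the macrophage score (at least 0.0639), nor S100a4, S100a6, S100a10 and S100a13 for the fibroblast score (at least 0.0627). Within SCR all 6 passed for these scores. For the neutrophil score 0 passed (6 unadjusted in limma) without the 2 mice farthest from its median (3.89% of all probes). For the Schwann score, where 0 passed, 6 did in numbers 4 to 11 (29.7% of all probes) and 3 without the 2 farthest mice (8.96%). For the adipocyte score, where 0 passed, 1 (S100a13) did with median centring (2.07% of probes) and 1 (S100a13) with the filter on dim probes (5.78%). By Pearson's r 16 of the 36 member pairs passed, 7 within the 11 ANTI-210 mice and 15 within the 11 SCR mice, where S100a8 with S100a9 was the pair lost. In the 6 mice numbered 1 to 3, 0 pairs passed. The cause was not tested.

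Signal limits what can be read from S100b and from the neutrophil list, where 16 of 20 markers were near the floor, and no depth is known for an array. The other members were above the floor, and spread among mice limits their precision. The SD over the mice reached 0.80 for S100a11, whose treatment difference had an SE of 0.33. Replicate sets, chips and cell composition cannot be told apart by labels.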
